A study of Mus musculus with 360 samples.

Results

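The genes described are the secreted inhibitors of Wnt signaling, namely the secreted frizzled-related proteins Sfrp1, Sfrp2, Sfrp4, Sfrp5 and Frzb, the Wnt inhibitory factor Wif1, the Dickkopf genes Dkk1, Dkk2 and Dkk3, and Sost. They were chosen by name, as 10 of the 24015 genes in the count tables. Reads were counted gene by gene in single CD51+;CD200+ cells, a surface phenotype taken in the study to mark skeletal stem/progenitor cells, from wild-type CD-1 mice at postnatal day 3. The cells came from the coronal (COR), sagittal (SAG) and posterior frontal (PF) sutures of the skull and, as a reference, from the growth plate (GP) of the tibia. Of these, PF closes by fusion in young mice, whereas COR and SAG remain patent. Each suture sample was taken with its bone edges, the dura mater beneath and the periosteum above. Tissue from many mice was pooled and no record names an animal, so each tissue counts as 1 sample, seen on 2 plates of cells. Differences between tissues are therefore given without a p-value, and no replicate animal stands behind them.

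Wnt proteins are secreted signals that bind Frizzled receptors together with Lrp5 or Lrp6, and in the canonical (cWnt) branch this stabilises β-catenin, which acts with TCF/LEF factors on target genes. The inhibitors act outside the cell. The frizzled-related proteins and Wif1 bind Wnt proteins themselves, whereas Dkk1 and sclerostin, the product of Sost, bind Lrp5 and Lrp6. In bone, cWnt signaling promotes bone formation, Sost is known as a gene of mature osteocytes, and several of the inhibitors are themselves made by cells of the bone lineage.

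Of 360 cells, 325 passed a minimum of 500 genes with a read and 10000 reads, which left 74 cells of COR, 78 of GP, 86 of SAG and 87 of PF. Values are reads per 1000000 reads (CPM), summed over the cells of a tissue or plate. The ribosomal RNA gene Rn45s was left out of the total. It took 86.8% of the reads of SAG plate 2 and 20.2% to 31% on the other plates, and the cells of SAG plate 2 had a median of 875 genes with a read against 2112 to 3867 elsewhere. SAG plate 2 stands apart for this reason, and ratios and calls against SAG are also given with SAG plate 1 alone. Itgav and Cd200, the genes of the sort proteins, had a read in 18.6% to 60.8% and in 33.7% to 55.4% of the cells of a tissue. Of genes of proteins sorted against, Ptprc, Tek and Thy1 had reads in 0 to 3 cells of a tissue, and Enpep and Eng in 0 to 6. Markers differed between tissues as well. A list of chondrocyte genes, 11 of them in the tables, summed to 17808 CPM in SAG (22619 on plate 1 and 14610 on plate 2), 6853 in GP, 1215 in PF and 742 in COR, and a list of 10 osteoblast genes to 33493 CPM in SAG and 101210 to 119449 in the other tissues. The part of these lists in the values below was not tested.

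The 10 genes lie apart in the genome. Sfrp2 and Dkk2 share chromosome 3, and Sfrp5 and Dkk1 share chromosome 19, each far from the other. In build NCBIM37 (mm9) of the mouse genome, the build of the counts, Sfrp2 runs from 83570243 to 83578238 on the plus strand of chromosome 3, Wif1 from 120471016 to 120537706 on the plus strand of chromosome 10, Dkk3 from 119259533 to 119302571 on the minus strand of chromosome 7 and Dkk1 from 30620353 to 30624155 on the minus strand of chromosome 19. Sfrp2 has 5 exonic blocks, merged over its annotated transcripts, and 2153 exonic bases, and its exons overlap the gene Gm16790. Use of strand in the counting is not given in the sources used here, so reads of Gm16790 may not be told apart from those of Sfrp2. The exons of the other 9 inhibitor genes overlap no annotated gene.

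The 250 bases before the annotated start are shown for Sfrp2, Wif1 and Dkk1, because Dkk1 was read mostly in cells with Wif1 and in 0 cells with Sfrp2. Each runs 5′ to 3′ on the strand of its gene, and capitals mark a match to the RUNX core TGTGGT or its complement. The windows are chr3:83569993-83570242 for Sfrp2, chr10:120470766-120471015 for Wif1 and chr19:30624156-30624405, minus strand, for Dkk1.
Sfrp2: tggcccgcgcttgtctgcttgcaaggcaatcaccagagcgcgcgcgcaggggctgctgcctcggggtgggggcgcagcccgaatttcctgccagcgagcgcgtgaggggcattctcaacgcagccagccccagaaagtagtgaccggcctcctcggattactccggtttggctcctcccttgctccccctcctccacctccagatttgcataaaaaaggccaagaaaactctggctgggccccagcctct
Wif1: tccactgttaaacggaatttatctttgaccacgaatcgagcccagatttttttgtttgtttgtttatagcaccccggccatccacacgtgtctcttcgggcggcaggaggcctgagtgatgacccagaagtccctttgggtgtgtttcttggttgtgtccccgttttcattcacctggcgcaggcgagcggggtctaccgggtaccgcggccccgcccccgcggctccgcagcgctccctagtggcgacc
Dkk1: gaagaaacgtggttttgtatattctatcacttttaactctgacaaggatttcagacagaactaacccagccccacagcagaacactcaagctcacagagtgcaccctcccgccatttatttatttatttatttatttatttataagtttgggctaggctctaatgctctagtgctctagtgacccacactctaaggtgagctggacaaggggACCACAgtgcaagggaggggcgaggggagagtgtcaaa
Runx2 is the RUNX factor of osteoblasts. The match before Dkk1 begins 38 bases from the start and lies on the minus strand of the window. Among the 10 genes, matches were present before Sfrp5, Frzb and Dkk1, and 12.8% of 22380 such windows hold one. The TCF/LEF letters CTTTGAA and CTTTGAT, searched on both strands, were in 0 of the 10 windows and in 7.13% of all. A match of letters is no evidence of binding, and a window without one says nothing of the factor.

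Dkk3 and Wif1 were the most broadly read genes of the group. Dkk3 had a read in 178 of 325 cells and Wif1 in 113, Sfrp2 in 62, Sfrp4 in 55 and Sfrp1 in 46. Dkk2 was read in 23 cells, Dkk1 in 22, Frzb in 21 and Sfrp5 in 7. Sost had 0 reads in all 325 cells. Because longer genes collect more reads, levels of different genes are compared only as CPM per kilobase of exon. On that scale Wif1 led in PF with 362, followed by Sfrp2 with 196 and Dkk3 with 138, while the remaining genes lay at 21.3 or below. In COR the order was Dkk3 (254), Wif1 (202), Sfrp4 (105) and Sfrp2 (32.9), and in GP it was Dkk3 (324), Wif1 (234), Sfrp4 (114) and Sfrp2 (64.8). In SAG only Dkk3 (119) and Wif1 (65.2) were above 10 on this scale. Sfrp2 thus held the second rank in PF and the fourth in COR and GP by these sums. By plate the ranks moved, since Sfrp2 was just below Dkk3 on PF plate 1 (157 against 159), above Sfrp4 on GP plate 1 (139 against 76.6) and below Dkk1 on COR plate 1 (0.14 against 32.2).

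**Figure D1:**
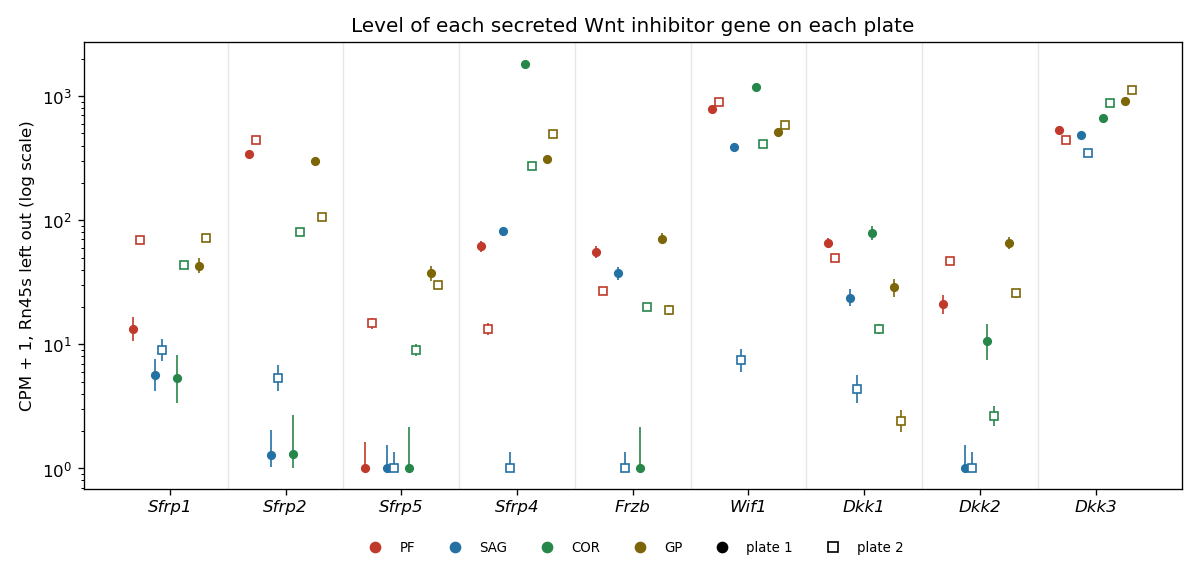
CPM + 1 of 9 inhibitor genes on a log axis, with Rn45s left out, for plate 1 (filled circles) and plate 2 (open squares) of PF, SAG, COR and GP. Bars are exact Poisson 95% intervals of the summed reads and cover counting error only. Sfrp2 sits at 338 and 441 CPM on the PF plates and below 5 CPM on both SAG plates, and Dkk3 stays between 345 and 1125 CPM on all plates.

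Sfrp2, which binds Wnt proteins through a domain like that of the Frizzled receptors, was read in more PF cells than cells of any other tissue. Its level was 338 and 441 CPM on the PF plates, 0.291 and 4.35 on the SAG plates, 0.309 and 78.9 on the COR plates, and 299 and 106 on the GP plates. Both PF plates lay above every other plate. Summed over plates, PF stood at 421 CPM (95% Poisson interval 414 to 429), GP at 139, COR at 70.9 and SAG at 2.73, with 47 reads in SAG of which 45 came from 1 cell. The ratio on the log2(CPM + 1) scale was 6.82 for PF to SAG, 2.55 for PF to COR and 1.59 for PF to GP. With SAG plate 1 alone, where 2 reads were seen, PF to SAG was 8.35. The ratio to GP is the smallest of the 3, as the PF plate 1 and GP plate 1 values differed by only 0.18 on this scale. Sfrp2 was not ordered in the same way between COR and GP, where COR plate 1 held 1 read in 16 cells and COR plate 2 drew 53.3% of its Sfrp2 reads from 1 cell.

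More PF cells carried Sfrp2 as well. It had a read in 34 of 87 PF cells, or 39.1% (exact binomial 95% interval 28.8 to 50.1), and the shares on the PF plates were 38.2% and 39.6%. In GP 16 of 78 cells had one (20.5%, 12.2 to 31.2), in COR 10 of 74 (13.5%, 6.68 to 23.5) and in SAG 2 of 86 (2.33%, 0.283 to 8.15). With every cell thinned to 100000 reads other than Rn45s, which leaves out 17 PF, 6 SAG, 3 COR and 11 GP cells as too shallow, the shares were 32.9%, 1.25%, 14.1% and 22.4%. These intervals cover the counting of cells within 1 sample and say nothing of the spread between animals. Within cells that had a read, the median level was 813 CPM in PF, 297 in GP and 164 in COR.

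**Figure D2:**
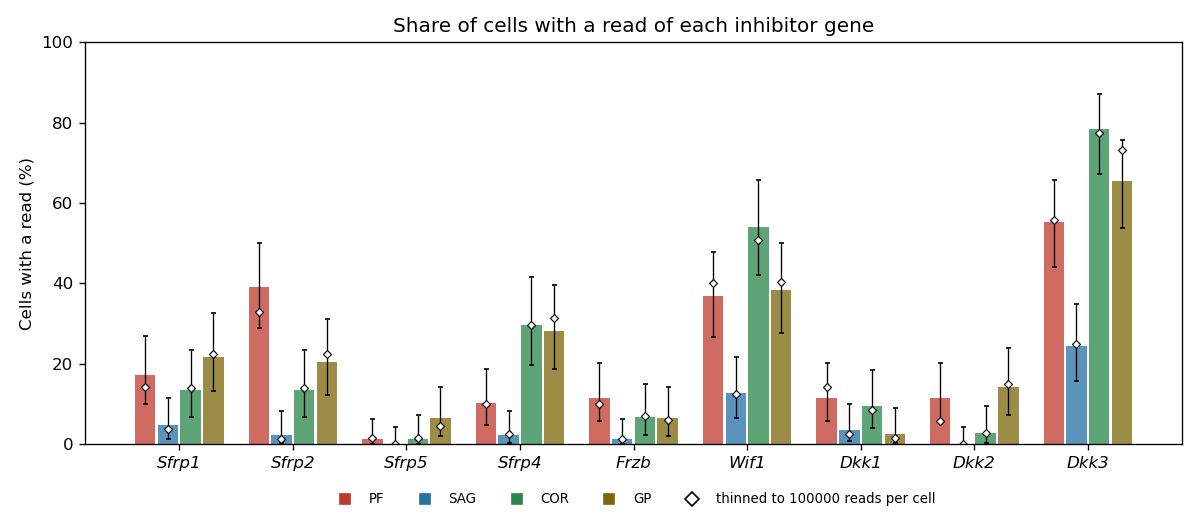
Percent of cells with at least 1 read of each inhibitor gene in PF (87 cells), SAG (86), COR (74) and GP (78). Bars give the share with its exact binomial 95% interval, and diamonds give the share after thinning each cell to 100000 reads other than Rn45s. Sfrp2 reaches 39.1% in PF, Wif1 54.1% and Dkk3 78.4% in COR, and SAG has the lowest bar for 8 of the 9 genes.

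Sfrp1, the founding member of the family, was read in about as many PF, COR and GP cells and in few SAG cells. It stood at 12.3 and 67.8 CPM on the PF plates, 4.66 and 8.03 on the SAG plates, 4.32 and 42.4 on the COR plates and 42.1 and 70.5 on the GP plates. Within PF and within COR, the plates differed by more than these tissues did from each other. In PF, 50.6% of its reads came from 1 cell. It was read in 15 PF, 4 SAG, 10 COR and 17 GP cells. Relative to SAG, PF stood 2.92 higher on the log2 scale, and SAG to GP was -3.12. With SAG plate 1 alone these were 3.36 and -3.56. PF was no longer 2-fold above SAG without PF plate 2 (0.80).

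Sfrp5, a close relative of Sfrp1, was the rarest of the genes with any reads. It had reads in 5 GP cells, 1 PF cell, 1 COR cell and 0 of 86 SAG cells. A count of 0 allows a share of cells with a read of at most 3.49% there, which is a limit on detection and not on expression. GP was the tissue with Sfrp5 on both plates, at 36.4 and 28.8 CPM. A count of 3 reads over the SAG cells would give 0.174 CPM. The GP level of 30.1 CPM is 173-fold higher than that. Its reads come from 5 cells, so this fold sets no lower limit on the difference. Its 7 cells are too few for the gene to enter the counts of genes called below.

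Sfrp4, which is also made by cells of the bone lineage, showed the reverse order of Sfrp2 between PF and COR. It stood at 1811 and 271 CPM on the COR plates, 310 and 494 on the GP plates, 60.5 and 12.3 on the PF plates, and 80.2 and 0 on the SAG plates. All COR and GP plates lay above all PF and SAG plates. The ratio of PF to COR was -4.24 (log2) and that of PF to GP was -4.35. A few cells held most of the reads, with 1 cell giving 5683 of the 5864 Sfrp4 reads of COR plate 1 and 1 cell giving 54.6% of those of GP. Without the highest cell of each tissue, Sfrp4 no longer met the rule for PF against COR. Its log2 ratio ran from -6.32 to -2.80 over the 12 alternatives run. The share of cells with a read counts each cell once, so that 1 cell with many reads has no more weight than another. It was 22 of 74 in COR (29.7%, 19.7 to 41.5), 22 of 78 in GP (28.2%, 18.6 to 39.5), 9 of 87 in PF (10.3%, 4.84 to 18.7) and 2 of 86 in SAG (2.33%). On PF plate 2 the count was 2 of 53 cells, and on PF plate 1 it was 7 of 34.

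Frzb, also called Sfrp3 and known from cartilage, was low in every tissue. Its level was 54.3 and 26.1 CPM on the PF plates, 36.4 and 0 on the SAG plates, 0 and 19.1 on the COR plates and 70 and 17.9 on the GP plates. The plates of every pair of tissues other than PF and COR overlapped. It was read in 10 PF, 5 COR, 5 GP and 1 SAG cells, and the single SAG cell held all 250 reads of that tissue.

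Wif1, which binds Wnt proteins and keeps them from their receptors, was read in 54.1% of COR cells (42.1 to 65.7), 38.5% of GP cells, 36.8% of PF cells and 12.8% of SAG cells. Its level was 790 and 899 CPM on the PF plates, 1180 and 414 on the COR plates, 511 and 581 on the GP plates, and 386 and 6.48 on the SAG plates. COR held both the highest plate of all and a plate below those of PF and GP. PF lay above GP on every plate, by less than 2-fold (log2 ratio 0.63). SAG plate 1 had Wif1 in 10 of 30 cells and plate 2 in 1 of 56, so the SAG level rests on which plate is read. The PF to SAG ratio was 2.47 (log2) with both SAG plates and 1.18 with plate 1 alone, and the SAG to COR ratio moved from -1.63 to -0.35.

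Dkk1, the classical antagonist at Lrp5 and Lrp6, was a gene of few cells. It stood at 64.6 and 48.4 CPM on the PF plates, 78.1 and 12.3 on the COR plates, 22.8 and 3.39 on the SAG plates and 27.7 and 1.40 on the GP plates. Both PF plates lay above the SAG and GP plates, and the COR plates lay on either side of PF. Reads came from 10 PF, 7 COR, 3 SAG and 2 GP cells. The ratio of PF was 2.11 (log2) to SAG, 1.14 to SAG plate 1 alone, and 2.92 to GP. The GP value depends on the weight of cells. With each cell given the same weight, PF was at 34.9 CPM and GP at 32.4, a log2 ratio of 0.11, and without GP plate 2 the ratio was 0.87.

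Dkk2, which can activate or inhibit the pathway depending on the cell, was present in PF and GP and nearly absent from the other sutures. It had 19.9 and 46.2 CPM on the PF plates, 64.2 and 24.8 on the GP plates, 9.57 and 1.63 on the COR plates and 0 on both SAG plates. PF and GP overlapped, and both lay above COR on every plate. Cells with a read numbered 10 in PF, 11 in GP, 2 in COR and 0 in SAG. The log2 ratio was 3.61 for PF to COR and -3.25 for COR to GP. The PF level was 236-fold and the GP level 181-fold above that of 3 reads over the SAG cells. Reads of 1 cell are not independent, so these folds set no lower limit on the difference. After thinning, the share of PF cells was 5.71% instead of 11.5%, while that of GP was 14.9% instead of 14.1%.

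Dkk3, a divergent member of the Dickkopf family whose part in Wnt signaling is not settled, was the most evenly spread. It stood at 534 and 445 CPM on the PF plates, 486 and 345 on the SAG plates, 664 and 873 on the COR plates and 913 and 1125 on the GP plates. GP lay above COR, and COR above PF and SAG, on every plate, while PF and SAG overlapped. The steps were small, with log2 ratios of -0.88 for PF to COR, -1.23 for PF to GP and -0.35 for COR to GP. It was read in 58 of 74 COR cells (78.4%, 67.3 to 87.1), 51 of 78 GP cells (65.4%, 53.8 to 75.8), 48 of 87 PF cells (55.2%, 44.1 to 65.9) and 21 of 86 SAG cells (24.4%, 15.8 to 34.9). On SAG plate 2 Dkk3 was read in 10 of 56 cells, whereas Sfrp1, Sfrp2, Wif1 and Dkk1 were each read in 1 cell there.

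Sost was at 0 reads in every tissue. With this number of cells, a count of 0 allows at most 3.45% (PF), 3.49% (SAG), 4.05% (COR) and 3.85% (GP) of cells with a read. A cell may express the gene without a read, so these limit detection and not expression. At least 1 of 6 listed osteocyte genes was read in 82.4% of COR, 70.5% of GP, 67.8% of PF and 23.3% of SAG cells (46.7% on SAG plate 1 and 10.7% on plate 2). These 6 genes include Pdpn and Cd44, which other cells also make.

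Pairs of tissues were set side by side with a descriptive rule, at least 2-fold between summed levels and the same sign in all 4 comparisons of a plate with a plate. It was applied to 10169 genes with a mean of at least 5 CPM over the tissues and reads in at least 10 cells, among them 8 of the 10 inhibitors (all but Sfrp5 and Sost). Against SAG, PF was higher for 5 of 8, namely Sfrp1, Sfrp2, Wif1, Dkk1 and Dkk2, and lower for 0, where the rule called 17.4% of all genes higher and 12% lower. Without SAG plate 2 the same 5 genes were higher and Sfrp4 was lower (log2 ratio -1.84), against 17.3% and 15.3% of all genes. The median log2 ratio was 2.29 for the 8 inhibitors and 0.33 for all genes, and without SAG plate 2 it was 1.16 and 0.03. The plates of PF and SAG overlapped for Sfrp4, Frzb and Dkk3.

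Against COR, PF was higher for Sfrp2 and Dkk2 and lower for Sfrp4, where the rule called 5.02% of all genes higher and 6.59% lower. Sfrp1, Frzb, Wif1, Dkk1 and Dkk3 did not meet it. Of those, Frzb and Dkk3 had the same sign on all plates with ratios under 2-fold, 0.85 and -0.88 (log2). The median was 0.84 for the inhibitors and 0.01 for all genes. PF and COR thus differed in which inhibitors they carried, with Sfrp2 and Dkk2 on one side and Sfrp4 on the other.

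SAG was lower than COR for 4 of 8, Sfrp4, Wif1, Dkk2 and Dkk3, and higher for 0, beside 19.6% and 12% of all genes. The median of all genes was shifted by -0.36 here, and Dkk3, at -1.08, lies within 2-fold once this shift is taken off. Without SAG plate 2, SAG was lower for Sfrp2, Sfrp4 and Dkk2 and higher for Frzb, beside 16.9% and 14% of all genes. The Frzb call rests on 1 SAG cell. Wif1 and Dkk3 were then at -0.35 and -0.81 and below the fold asked for. Dkk2 against COR rests on few reads, since COR held 78 in 2 cells.

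Against GP, PF was higher for Sfrp2 and Dkk1, beside 7.51% of all genes, and lower for Sfrp4 and Dkk3, beside 8.11%. Without GP plate 2, the log2 ratios of Sfrp2 (0.49), Dkk1 (0.87) and Dkk3 (-0.98) were all under 2-fold. SAG was lower than GP for 6 of 8 (18.2% of all genes) and higher for 0 (12.1%). These 6 were Sfrp1, Sfrp2, Sfrp4, Wif1, Dkk2 and Dkk3, and without SAG plate 2 Wif1 dropped out at -0.56, leaving 5 beside 16.9% of all genes lower and 15.2% higher. The median of all genes was shifted by -0.29 between SAG and GP with both SAG plates. COR was lower than GP for Dkk2 alone, beside 6.38% of all genes, and higher for 0, beside 6.45%. COR and GP were the pair with the fewest inhibitors called.

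Most cells outside SAG carried more than 1 inhibitor gene. At least 2 of the 10 were read in 55 of 87 PF cells, 49 of 74 COR cells and 49 of 78 GP cells. In SAG the number was 7 of 86, made up of 7 of 30 on plate 1 and 0 of 56 on plate 2. The highest number in 1 cell was 5 in PF, COR and GP and 3 in SAG. Cells with 0 inhibitor genes made up 8 of 87 in PF, 3 of 74 in COR, 9 of 78 in GP and 52 of 86 in SAG. Depth differed between these cells. In SAG, cells with 0 inhibitor genes had a median of 948 genes read and cells with 2 a median of 3180. In PF, cells with 0 inhibitor genes had a median of 1224 genes read, cells with 2 a median of 2729 and cells with 4 a median of 2017.

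Sfrp2 cells usually carried another inhibitor, as did the cells without Sfrp2. In PF, 26 of 34 Sfrp2 cells (76.5%, 58.8 to 89.3) had a read of another inhibitor gene, against 45 of 53 cells without Sfrp2 (84.9%, 72.4 to 93.3). The counts were 9 of 10 against 61 of 64 in COR and 14 of 16 against 53 of 62 in GP. The partner was most often Dkk3, in 22 of the 34 PF cells, 9 of the 10 COR cells and 13 of the 16 GP cells. PF cells with and without Sfrp2 had medians of 2674 and 2485 genes and of 232046 and 324595 reads. Their order by genes differed between plates, with medians of 1940 and 2485 on PF plate 1 and 3098 and 2456.5 on PF plate 2. These are counts over cells of 1 sample and describe those cells.

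Which partner was present differed by tissue. Wif1 was read in 6 of 34 Sfrp2 cells of PF (17.6%, 6.76 to 34.5) against 26 of 53 other PF cells (49.1%, 35.1 to 63.2). In GP it was the other way, with Wif1 in 10 of 16 Sfrp2 cells (62.5%, 35.4 to 84.8) and 20 of 62 other cells (32.3%, 20.9 to 45.3). In COR the counts were 5 of 10 and 35 of 64. Among these cells, Sfrp2 and Wif1 were more often apart in PF and more often together in GP. This difference between tissues was noted after the values were seen and was not tested, as each tissue is 1 sample.

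Dkk1 was never read with Sfrp2. None of the 62 Sfrp2 cells had a read of Dkk1, which allows at most 4.84% with a read and does not limit expression below detection, and 22 of the 263 other cells had one (8.37%, 5.32 to 12.4). In PF the count was 0 of 34 against 10 of 53. Dkk1 was instead read with Wif1, in 20 of 22 Dkk1 cells (90.9%, 70.8 to 98.9) against 93 of 303 cells without Dkk1 (30.7%). This held in 9 of 10 Dkk1 cells in PF, 7 of 7 in COR and 2 of 2 in GP. Dkk1 was also read in 0 cells with Sfrp1 and 0 with Dkk2. The cells with Dkk1 are few, and in PF they had a median of 3225 genes against 2401 in the rest.

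**Figure D3:**
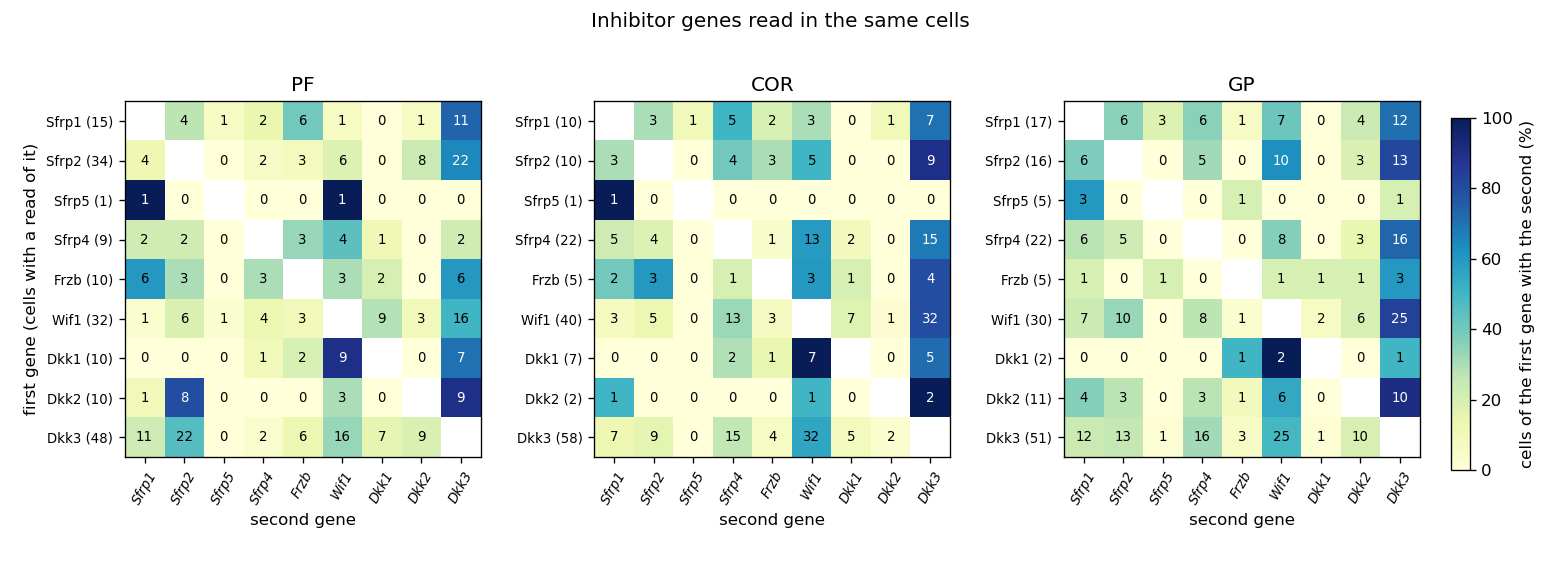
Cells of PF, COR and GP in which both inhibitor genes had a read. Rows give the first gene with its number of cells in brackets, columns the second gene, printed numbers the cells with both, and the colour the percent of the cells of the first gene. The Dkk1 row is dark at Wif1 (9 of 10, 7 of 7 and 2 of 2 cells) and 0 at Sfrp2 in all 3 panels, and in PF the Dkk2 row holds 8 of 10 cells at Sfrp2.

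Dkk2 sided with Sfrp2 in PF. There 8 of 10 Dkk2 cells had Sfrp2 (80%, 44.4 to 97.5), against 26 of 77 cells without Dkk2 (33.8%, 23.4 to 45.4). In GP the counts were 3 of 11 and 13 of 67, so the pattern of PF was not seen there at this depth. Dkk2 cells nearly all had Dkk3, in 9 of 10 PF, 2 of 2 COR and 10 of 11 GP cells. Frzb was read with Sfrp1 in 6 of 10 PF cells, where 9 of 77 cells without Frzb had Sfrp1. By these counts 3 pairs were read together in PF, Wif1 with Dkk1, Sfrp2 with Dkk2, and Sfrp1 with Frzb.

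**Figure D4:**
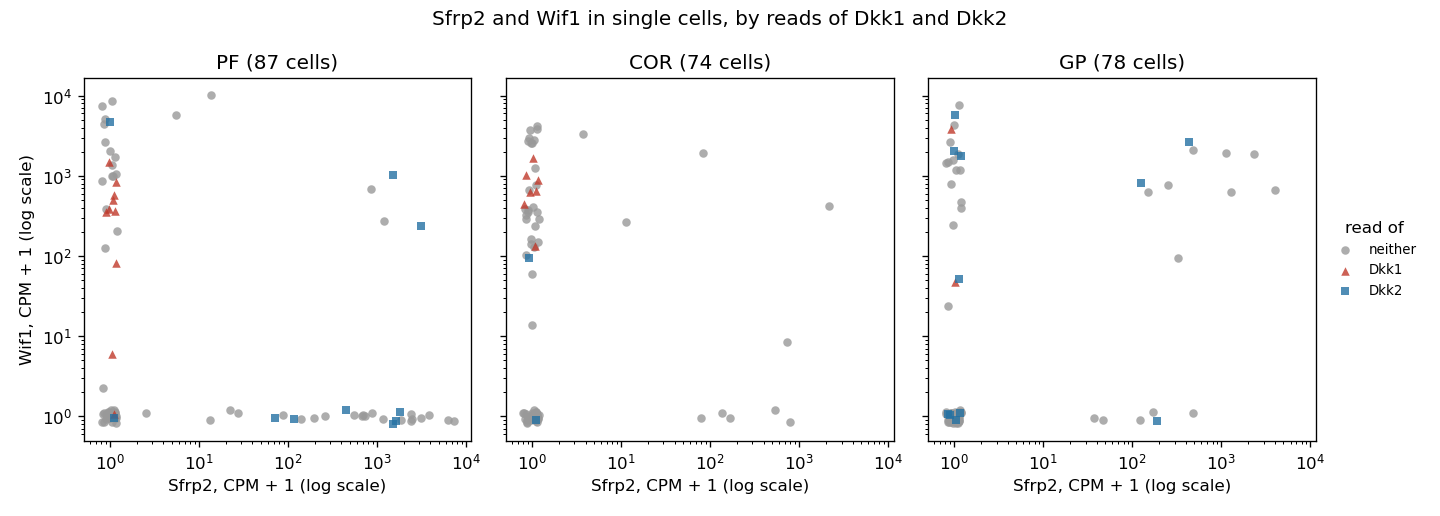
Sfrp2 against Wif1 in single cells of PF, COR and GP, each as CPM + 1 on log axes with a small random offset so that cells at 0 can be told apart. Triangles are cells with a read of Dkk1, squares cells with a read of Dkk2 and grey circles cells with neither. Triangles lie at 0 reads of Sfrp2 in every panel, and 6 of 34 Sfrp2 cells of PF and 10 of 16 of GP have a read of Wif1.

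Lineage markers differed between the same pairs. The markers named here were picked from the lists after their values were seen. In PF, 9 of 10 Dkk1 cells had a read of Ibsp (bone sialoprotein), 90% against 23.4% of other PF cells, and 9 of 10 had Bglap (osteocalcin), Sp7 (osterix) and Panx3. Dmp1, a gene of late osteoblasts and osteocytes, was read in 7 of 10 (70%) against 3.90% of the other cells. Tnmd, a tendon and ligament gene, was read in 0 of 10 Dkk1 cells and 36 of 77 others. The Dkk1 cells of PF were thus cells with bone matrix genes. Bglap and Bglap2 are near-identical and may share reads, so either value is uncertain by itself.

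Wif1 marked a broader group with the same genes. Among 32 Wif1 cells of PF, Panx3 was read in 68.8% against 3.64% of other cells, Bglap in 62.5% against 3.64%, Ibsp in 62.5% against 12.7% and Sp7 in 71.9% against 14.5%. Pth1r, the receptor of parathyroid hormone, was read in 84.4% against 21.8%. Panx3 and Pth1r are on the list of hypertrophic chondrocyte genes, any of which was read in 90.6% against 32.7%. Only 3 of the 5 genes on that list had a read in PF. The chondrocyte list went the other way, with a median of 1 gene read in Wif1 cells against 2 in other PF cells. For the osteoblast list the medians were 7 against 3 genes. These Wif1 cells had medians of 2860 genes and 448652 reads other than Rn45s, against 2239 and 215418 in other PF cells. The part of depth in these shares was not tested. In COR the Wif1 cells were less distinct, with Sp7 in 75% against 41.2% and Panx3 in 65% against 32.4%. In GP they differed in another way, for Tnmd was read in 76.7% of Wif1 cells and 37.5% of others. Wif1 cells of SAG, 10 of 11 of them from plate 1, had Pth1r in 81.8% against 10.7%, beside medians of 3236 and 956 genes per cell, and the part of depth was not tested.

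Sfrp2 cells of PF had lower shares of several bone genes, though not of all. Over the list of 10 osteoblast genes, they had a median of 2.5 genes read against 5 in other PF cells, and a median summed level of 60592 against 79761 CPM. In GP the medians were 2 against 3 genes and 69446 against 55142 CPM. Col1a1, the collagen gene that most cells had, was read in all 34 Sfrp2 cells of PF, and Alpl in 73.5% against 77.4%. In PF, Ibsp was read in 1 of 34 Sfrp2 cells (2.94%) against 49.1% of other cells, Bglap in 5.88% against 37.7% and Sp7 in 14.7% against 49.1%. Tnmd was read in 73.5% against 20.8%, Pdpn (podoplanin) in 58.8% against 24.5% and Acan (aggrecan) in 61.8% against 26.4%. In GP, Sfrp2 cells had Tnmd in 81.2% against 45.2% and the tendon factor Mkx in 56.2% against 19.4%, with Sp7 in 0 of 16 against 29% and Ibsp in 3 of 16 against 24.2%. In COR, Ibsp was in 0 of 10 Sfrp2 cells and 29.7% of others. Low shares of Ibsp in Sfrp2 cells were thus seen in PF and COR alike. Dkk2 cells of PF had the same signs, with Acan in 9 of 10 and Ibsp, Bglap and Panx3 in 0 of 10, and those of GP had Tnmd in 10 of 11.

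**Figure D5:**
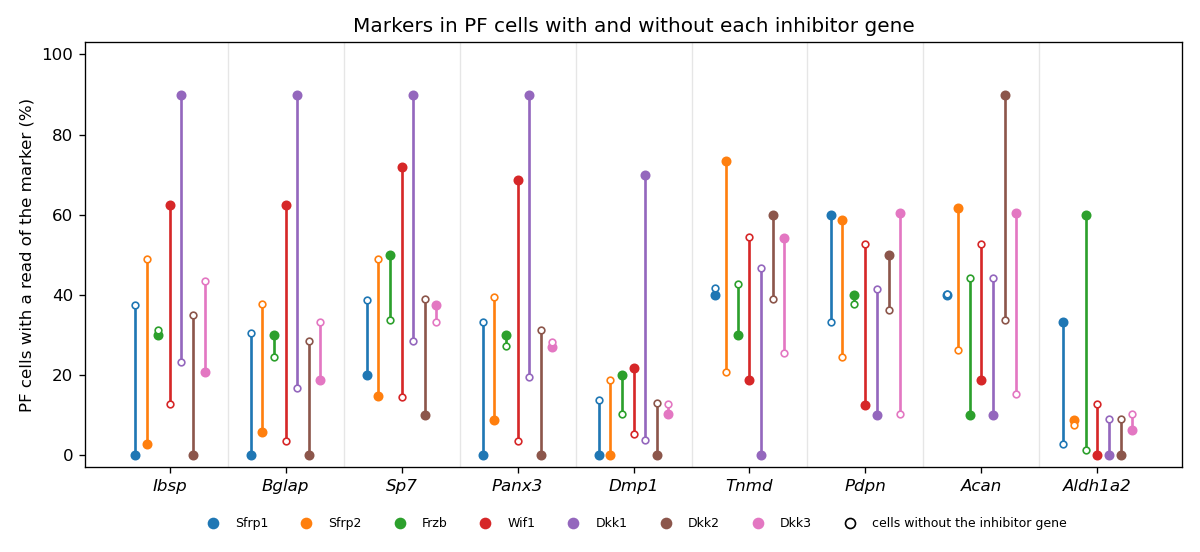
Percent of PF cells with a read of 9 marker genes, among cells with each inhibitor gene (filled) and among the other PF cells (open), joined by a line. Inhibitors read in at least 10 PF cells are shown. Dkk1 and Wif1 lie above the other cells at Ibsp, Bglap, Sp7, Panx3 and Dmp1, Sfrp2 lies below them there and above at Tnmd, Pdpn and Acan, and Frzb and Sfrp1 lie above at Aldh1a2.

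Sfrp1 and Frzb cells of PF shared a read of Aldh1a2, a retinoic acid synthase of the meninges among other tissues. It was read in 6 of 10 Frzb cells (60%) against 1.30% of others, and in 5 of 15 Sfrp1 cells (33.3%) against 2.78%. Ibsp was read in 0 of 15 Sfrp1 cells of PF and in 3 of 10 Frzb cells. In COR, Sfrp1 cells had S100b in 7 of 10 (70%) against 9.38% and Foxc1 in 5 of 10 against 14.1%. S100b is on the list of neural or glial genes and Aldh1a2 and Foxc1 on that of the meninges, whose tissue was taken with the sutures. The whole meningeal list separated the PF cells less than Aldh1a2 did. Any of its genes was read in 60% of Sfrp1 cells of PF against 45.8% of others, and in 60% of Frzb cells against 46.8%. In COR the shares for Sfrp1 were 70% and 26.6%. At least 1 of 6 meningeal genes was read in 32.4% of the cells of COR, 48.3% of those of PF, 52.6% of those of GP and 61.6% of those of SAG, and the GP sample was not taken with meninges. The endothelial list, of which 1 or 2 genes had reads in a tissue, was read in 3 of 10 Sfrp1 cells of COR against 1.56% of others and in 2 of 10 Frzb cells of PF against 1.30%. Tek was at 0 and Ptprc was read in at most 3 cells of a tissue. Summed levels of the endothelial and blood lists were 2.38 to 16.4 and 3.02 to 15.7 CPM in the 4 tissues.

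Among GP cells, Scx, a factor of tendon cells, was read in 28 of 51 Dkk3 cells and 0 of 27 others. Fmod (fibromodulin) was read in 96.1% against 33.3%, Tnmd in 72.5% against 14.8% and Ctsk, of the osteoclast list, in 88.2% against 33.3%. Lists of other lineages were higher there too. Median levels of the osteoblast list were 71872 against 25067 CPM, and medians of the chondrocyte list 4 against 2 genes. Any meningeal gene was read in 66.7% against 25.9%. The hypertrophic chondrocyte, pericyte, endothelial, blood, glial and muscle lists were read in a smaller share of Dkk3 cells. In COR, Phex, a gene of osteoblasts and osteocytes, was read in 0 of 58 Dkk3 cells and 6 of 16 others, and Fmod in 94.8% against 43.8%. The lists that hold Phex did not both follow it. Any osteocyte gene was read in 84.5% of Dkk3 cells of COR against 75% of others. Of the osteoblast list, a median of 5 against 6 genes was read. In PF the Dkk3 cells had Acan in 60.4% against 15.4% and Pdpn in 60.4% against 10.3%. Sfrp4 cells of COR had Ibsp in 45.5% against 17.3%, beside medians of 3108 and 3594 genes. In GP the list that differed most in share was that of the meninges, with any of its genes in 86.4% of Sfrp4 cells and 39.3% of others, led by Crabp2 (68.2% against 28.6%), beside medians of 3472 and 2827 genes. Dkk3 cells had more genes read in every tissue, with a median of 2770 against 2167 in PF, 3699 against 2939 in COR and 3045 against 2676 in GP.

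Genes with the most similar pattern were ranked by the mean Pearson correlation of log2(CPM + 1) across the cells of a plate, over plates where both genes were read in at least 5 cells. Cells of a plate share their library preparation and differ in depth, so these values are descriptions and carry no p. For Sfrp2 the nearest were Egfl6 (mean r 0.53 over 5 plates), Fbn2 (0.49), Mfap4 (0.48), 1500015O10Rik (0.46) and Cilp2 (0.46). Mfap4 and Fbn2 encode proteins of elastic microfibrils. Among inhibitors, Sfrp2 was nearest to Dkk2, at 0.27 over 3 plates, and stood at -0.03 to Wif1. Genes near to Wif1 included Col13a1 (0.43), Prtg (0.41), Slc36a2 (0.40) and Lifr (0.39).

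For Dkk3 the leading genes were Angptl1 (0.53), Ctsk (0.50), Aspn (0.46), Clec11a (0.45) and Tmem119 (0.45), with Aspn and Tmem119 seen on all 8 plates. Sfrp1 stood nearest to Slc4a10 (0.50), Apoe (0.49), Gsta4 (0.44), Cyp2j6 (0.41) and Prps2 (0.41). The values for Sfrp4 were lower and were led by Epdr1 (0.41), Mmp13 (0.36), Ryk (0.35), Crabp2 (0.35) and Dmp1 (0.34). Mmp13 and Dmp1 are genes of mature bone and cartilage cells, and Mmp13 was at -0.05 with Sfrp4 on the lowest plate. The remaining inhibitors were read in fewer than 30 cells and were not ranked.

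The other genes of the pathway were counted from fixed lists. Of 19 Wnt ligand genes, 13 had reads and 4 could be tested by the rule, Wnt5a, Wnt5b, Wnt9a and Wnt11. Wnt5a, a ligand known for the non-canonical branch, led with a mean of 40.8 CPM over the tissues, and its SAG plates lay far apart at 5.38 and 96.9 CPM. Wnt5b and Wnt9a were at 20.9 and 24.3 CPM in PF, 31.3 and 18.7 in COR and 0 in SAG, so that PF and COR were each higher than SAG for both. Of all genes, 17.4% were higher in PF than in SAG and 19.6% lower in SAG than in COR. PF and COR differed in 0 of the 4 ligands, beside 5.02% of all genes higher and 6.59% lower in PF. Wnt3a had 0 reads in all cells. SAG thus lacked reads of the pair Wnt5b and Wnt9a on both plates, as it did for Dkk2. With SAG plate 1 alone, PF was higher for 3 of 4 and COR for 3 of 4, Wnt5a being added, beside 17.3% and 16.9% of all genes.

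Receptors were read more widely, with 17 of 18 seen and 16 tested. PF was higher than SAG for 2 (Fzd4 and Lrp4) and lower for 6 (Fzd3, Fzd7, Fzd8, Lrp6, Ror2 and Kremen1), where 17.4% of all genes were higher and 12% lower. With SAG plate 1 alone it was higher for 4 and lower for 3, beside 17.3% and 15.3% of all genes, and 4 genes had the same call as before. Fzd3, Fzd8, Lrp6 and Ror2 were no longer called. Lrp6, the co-receptor that Dkk1 binds, was highest in SAG, at 327 CPM, against 120 for PF, 82.9 for COR and 55.8 for GP. On SAG plate 1 it was at 151 CPM, and on PF plate 2 at 139, so that the difference from PF rests on SAG plate 2. With SAG plate 1 alone, Lrp6 was still higher in SAG than in GP (log2 ratio 1.42), and its SAG to COR ratio was 0.86, under 2-fold. Kremen1, which binds Dkk proteins, had 90.1 CPM in COR and 82 in SAG, against 22.9 for PF. PF was thus lower than both other sutures for Kremen1, on every plate. Against COR, PF was higher for Fzd8, Fzd9 and Lrp5 (5.02% of all genes) and lower for Fzd5, Ror2 and Kremen1 (6.59%). SAG was higher than COR for Fzd3, Fzd8 and Lrp6 (12% of all genes) and lower for Fzd6, Lrp4 and Ryk (19.6%). Of those 6 calls of SAG against COR, 2 held with SAG plate 1 alone. The highest means after Lrp6 were those of Fzd9 (93.6 CPM) and Fzd1 (72.7).

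Of 9 R-spondins and their receptors, which strengthen the Wnt response, 5 were tested, led by Lgr4, Znrf3 and Rspo3 with means of 52, 43.1 and 28.4 CPM. Lgr5 was at 5.92 and 31.2 CPM on the PF plates, 53.2 and 54.5 on the GP plates and 0 on all SAG and COR plates. Like Dkk2, it was higher in PF than in COR and at 0 in SAG. Among 9 other secreted modulators, 6 were tested, led by Igfbp4 (775 CPM), Bambi (88.4) and Sostdc1 (71.3). PF was lower than COR for 0 of them, beside 6.59% of all genes, and higher than SAG for 1, beside 17.4%. That gene was Tpbg, at 77.9 and 60.9 CPM on the PF plates and 54.4 and 0 on the SAG plates, and it was not called with SAG plate 1 alone. Bambi was lower in SAG than in COR, but not with SAG plate 1 alone (-0.39).

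Response genes were called in both directions. Of 12 genes that cWnt signaling is known to raise, 10 were tested, and 2 of them were higher and 2 lower in PF than in SAG, a share near that of all genes (17.4% and 12%). With SAG plate 1 alone the counts were 3 and 2, beside 17.3% and 15.3% of all genes. Axin2, the feedback gene of the pathway, had 16.3 CPM in SAG, against 1.39 for PF, 5.99 for COR and 5.58 for GP. Lef1 had 33.2 CPM in SAG, against 5.12 for PF and 4.49 for COR. Both were higher on each SAG plate than on each PF plate, and Axin2 was read in 5.75% of PF and 6.98% of SAG cells. Nkd2 and Lgr5 were the genes higher in PF than in SAG, and both were also higher in PF than in COR. Tcf7 was lower and Znrf3 higher in SAG than in COR, and neither was called with SAG plate 1 alone. Among the list, Ccnd1, Znrf3 and Nkd1 had the highest means, at 61, 43.1 and 40.9 CPM. Within PF, any response gene was read in 17 of 34 Sfrp2 cells (50%, 32.4 to 67.6) and 35 of 53 others (66%, 51.7 to 78.5), and in 25 of 32 Wif1 cells (78.1%, 60 to 90.7) and 27 of 55 others (49.1%, 35.4 to 62.9). The intervals overlap in both of these PF comparisons. The Sfrp2 order of PF was not seen elsewhere, with 15 of 16 against 43 of 62 cells in GP and 9 of 10 against 56 of 64 in COR. For Wif1 the counts were 24 of 30 against 34 of 48 in GP, 37 of 40 against 28 of 34 in COR and 9 of 11 against 31 of 75 in SAG.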

How the data were processed

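Single cells double sorted for CD51+ and CD200+ were sequenced by a SMART-seq2-type protocol without molecular identifiers. The deposited values are raw read counts per gene and cell, which the authors made for build mm9. The submitters' processing notes name STAR 2.5.3a, HTSeq, Seurat 2.3.0 and R 3.4.4. The annotation and use of strand are not given in the sources used here.

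Cells with at least 500 genes and 10000 reads were kept (325 of 360), and no 2 cells held identical counts. For 1 cell the labels name SAG in one field and PF in another. It was kept under its title and had 0 reads of all 10 genes. Reads were summed per tissue and plate and divided by the total without Rn45s, from 3237921 to 28799387 reads a plate. Ratios are log2 of (CPM + 1). Exact Poisson and binomial 95% intervals cover counting error only, since PCR reads are not independent molecules. A tissue is 1 sample, so no test was run. The rule for naming genes was the 10 inhibitors, the 5 most similar genes of each inhibitor read in at least 30 cells, the 3 highest genes of each pathway list and every listed gene called between sutures, and markers as needed. A few genes that the rule allows are not reported here. Members and lists were chosen with earlier results of these data known. The calculations were tested on simulated data. Alternatives were TMM factors (edgeR 4.0.16), equal weight per cell, other filters and pseudocounts, Rn45s in the total, and leaving out each plate or the highest cell. Calls of the other pathway genes with SAG plate 1 alone were added after seeing the data. Python 3.11.15, NumPy 2.4.6, pandas 2.3.3, SciPy 1.17.1, matplotlib 3.10.9 and R 4.3.3 were used.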

Additional observations from a re-analysis of the deposited data

Results flagged for a closer look

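Among the 35 cells removed as too shallow, which held 832881 reads other than Rn45s, Sfrp2 had 4 reads in 1 cell and Sfrp4 had 5 reads in 1 cell. Both are above the limit of 3 counts that a count of 0 allows, in cells that were used only in the alternative without a filter on cells.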

How the results depend on the processing

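The number of inhibitor genes that met the rule was 3 of 8 for PF against COR, and 5 when any fold was allowed or a COR plate was left out (range 3 to 5 over the plates left out). For PF against GP it was 4, and 2 with each cell given the same weight (2 to 5 over the plates left out, 2 without GP plate 2). For COR against GP it was 1, and 2 with TMM factors or the same weight per cell, 3 without the highest cell of each gene or with any fold, 2 of 9 without a filter on genes, and 1 to 7 over the plates left out (7 without COR plate 2). With a plate left out, fewer plate comparisons have to share a sign, and with any fold the 2-fold step falls away. The share of all genes was counted under the rule itself and with SAG plate 1 alone. These counts under alternatives therefore have no such share beside them and cannot be read against it. The share of Sfrp2 cells with another inhibitor, 90% in COR and 87.5% in GP, was 100% without COR plate 2 (1 of 1 cells) and 100% without GP plate 2 (6 of 6). Over the plates left out the ranges were 88.9% to 100% in COR and 80% to 100% in GP. The share of Dkk1 cells with Wif1 was 100% (19 of 19) with the stricter cell filter. Of 23 genes called in a pair of tissues, 13 were called under all 12 alternatives run for them, 10 were lost under at least 1 and 0 turned direction. Besides those named with the results, Dkk1 in PF against SAG was lost with the stricter filter (0.94), as was Wif1 in SAG against COR and in SAG against GP. Dkk2 in SAG against COR was lost with a pseudocount of 10 CPM (-0.31) and without the highest cell. Dkk3 in SAG against COR was lost with TMM factors, with the stricter filter and without COR plate 2. Dkk3 in PF against GP was lost with each cell given the same weight. Beyond such steps of the construction, the cause was not tested. Single genes in few cells are limited by depth and cell number. No paired analysis was possible because the values come from no test and plates of different tissues share only a number.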
